A study of Mus musculus with 9 samples.

Results

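The genes described here are 35 interferon-stimulated and antigen processing genes, taken by name from a list, and 33 of them were measured among 18194 genes. Each gene stood for its probe set with the highest mean signal. Isg15 shares its probe set with a second symbol and Ifi44 has no probe set under its own symbol, so both were not analysed here. The study followed cardiomyocytes made from mouse embryonic stem cells over the age of the culture, with 3 arrays each at day 10, day 20 and day 30 of differentiation. All 9 samples came from 1 line, synp, made from R1 embryonic stem cells of 129X1 x 129S1 background, and all carried a puromycin resistance gene (PAC) under the Ncx1 promoter, which is active in cardiomyocytes. The cytokines were FGF10, bFGF, VEGF, BMP4 and Activin A in every culture. Puromycin selection began at day 7, against cells in which that promoter is silent. No untreated, unselected or interferon-treated culture is among the samples, so each comparison is between ages. Nothing in the labels tells if replicates came from separate differentiations. The p-values then rest on a spread among arrays that could be technical alone.

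Type I interferons signal through the receptor chains Ifnar1 and Ifnar2 to a complex of STAT proteins and Irf9, which binds the interferon-stimulated response element. Interferon gamma signals through Ifngr1 and Ifngr2 to the gamma activated site. Their targets include proteins that block viral entry and translation, sensors of foreign RNA, and the machinery that cuts proteins into peptides and loads them on major histocompatibility complex (MHC) class I. In the heart this response limits the spread of virus in myocarditis, and embryonic stem cells are known to respond weakly to interferon.

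Between day 10 and day 30, 12 of the 33 measured genes rose and 0 fell, which is 36.4% of them, beside 11.2% of all genes called higher and 9.92% called lower. The genes were chosen with earlier results of these data known. A share above that of all genes, here and below, may follow in part from that choice and is not a test of the list. A gene was called, or said to have risen or fallen, where limma's test gave an adjusted p below 0.05 over all 18194 genes. The largest differences were those of Ifitm3, Ifi27, Xaf1, Ifi35 and Samd9l, with folds from 3.33 to 18.5. Another 17 were higher without passing the threshold, and 4 were lower. The median difference of the 33 was 0.60 on the log2 scale, against -0.03 over all genes. Of the 33, 24 lay below the median signal of all genes, and 7 below a log2 signal of 4.66, a range of low signals where arrays compress differences.

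Promoter stretches are shown for 8 of the 12 listed genes that hold the letters of the response element. They are all 5 such genes that rose and 3 of the 6 measured ones that did not pass the threshold. Gbp3, Ifih1, Rsad2 and Isg15 hold the letters too and are not shown. RefSeq windows from 250 bases before to 50 bases after the gene start (GRCm38.p6) were held for 28 of the 35 listed genes. They were searched on both strands for the core of the response element, which is GAAA, any 2 bases and GAAA again, and for the gamma activated site TTCNNNGAA. Usp18, Mx1, Mx2, Dhx58, Parp9, Parp14 and Ifi27 had no window in the table. Capitals mark the core, read 5′ to 3′ on the gene's strand, so that TTTC in capitals is the core on the other strand. The Ifit1 stretch lies at chr19:34640755-34640843 and the Ifit3 stretch at chr19:34583343-34583446, both on the plus strand. The Ifitm2 stretch lies at chr7:140955968-140956037 and the Ifitm3 stretch at chr7:141010715-141010772, both on the minus strand, and the latter runs 29 bases past the gene start. The B2m stretch lies at chr2:122147518-122147587 on the plus strand. Stat2 at chr10:128270248-128270315 (plus), Bst2 at chr8:71537557-71537632 (minus) and Gbp2 at chr3:142620574-142620643 (plus) did not pass the threshold.
Ifit1: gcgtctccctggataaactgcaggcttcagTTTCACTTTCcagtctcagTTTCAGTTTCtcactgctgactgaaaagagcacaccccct
Ifit3: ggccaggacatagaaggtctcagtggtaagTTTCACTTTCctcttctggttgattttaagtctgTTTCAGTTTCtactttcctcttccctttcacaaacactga
Ifitm2: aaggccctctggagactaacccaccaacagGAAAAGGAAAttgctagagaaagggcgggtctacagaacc
Ifitm3: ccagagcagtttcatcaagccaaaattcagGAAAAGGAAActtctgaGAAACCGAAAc
B2m: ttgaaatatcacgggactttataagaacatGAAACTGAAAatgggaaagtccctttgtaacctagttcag
Stat2: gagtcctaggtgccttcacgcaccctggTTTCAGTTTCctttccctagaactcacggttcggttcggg
Bst2: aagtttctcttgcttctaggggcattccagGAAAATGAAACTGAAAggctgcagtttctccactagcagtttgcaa
Gbp2: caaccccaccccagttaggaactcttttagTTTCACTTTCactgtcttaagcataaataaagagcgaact

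The core stood in the windows of 12 of the 28 listed genes (42.9%) and of 3.99% of all 27025 genes in the table. TTCNNNGAA stood in 6 of the 28 (21.4%) and in 9.55% of all genes. Of the 9 genes that rose from day 10 to day 30 and have a window, 5 held the core, which are those shown first. Among the 17 measured genes that did not pass and have a window, 6 held it. Samd9l, Xaf1 and Irf9, which rose, held neither motif in this window, and Ifi35 held the gamma site alone. The windows of Psmb9 and Tap1 lie on opposite strands of chromosome 17 and overlap. In Bst2 and in Ifitm3 the gamma site overlaps a core. The Ifitm3 cores begin 2 and 19 bases after the gene start. A match is a description of letters and not of a bound site.

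Of the 4 transcription factors, 1 rose and 0 fell. Irf9, the DNA-binding subunit of the type I complex, gave 5.79, 6.36 and 6.19 at day 10 (log2 signal, replicates 1 to 3), 6.31, 6.37 and 6.38 at day 20, and 6.87, 6.47 and 6.98 at day 30. Its 3 day 30 arrays were above all earlier ones, and it rose by 0.66 ± 0.17 (SE of the fit, 3 arrays a day) between day 10 and day 30 (adjusted p = 0.031). Leaving out replicate 1 of day 10, replicate 3 of day 20, or replicate 1 or 3 of day 30 ended that call, with differences of 0.50 to 0.66. Stat2, its partner in the complex, ran from 5.87 to 6.81 at day 10 and from 6.33 to 6.61 at day 30, and the groups overlapped. Irf7, which amplifies interferon production, stayed between 4.66 and 5.14 on all arrays, and Irf1, a target of both interferon types, between 7.09 and 7.68. Their differences from day 10 to day 30 were 0.17 for Stat2, -0.11 for Irf7, and 0.28 for Irf1, with adjusted p of 0.64, 0.65 and 0.23.

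None of the listed RNA sensors passed the threshold. Ifih1 (MDA5), a sensor of long double-stranded RNA, spread widely within days, from 4.91 to 6.60 at day 10, from 4.95 to 6.74 at day 20 and from 6.37 to 6.90 at day 30. Dhx58 (LGP2), which tunes that sensor, lay between 4.34 and 4.97 on every array. Trim25, a ubiquitin ligase that acts on the related sensor RIG-I, lay at percentile 76.1 of all genes in mean signal and differed by -0.04 between day 10 and day 30. Its adjusted p was 0.89. Trim25 was also the only listed gene whose 3 day 30 arrays were all below its 3 day 20 arrays, a difference of -0.28 that did not pass (adjusted p = 0.59).

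Of the 6 regulators of the response, Ifi35, Parp9 and Parp14 rose and the other 3 did not pass. Ifi35, a leucine zipper protein that binds Nmi, gave 7.40, 6.69 and 6.12 at day 10, 8.41, 7.96 and 8.39 at day 20, and 8.76, 8.91 and 8.97 at day 30. The 3 days did not overlap. It rose by 1.52 ± 0.29 by day 20 (adjusted p = 0.014) and by 2.14 ± 0.29 by day 30, a 4.42-fold change (adjusted p = 0.0021). The day 20 call was lost without day 20 replicate 3 (1.45), and without day 10 replicates 2 and 3 the day 20 difference was 0.85. Its other probe sets differed by 1.39 and 1.48 between day 10 and day 30. Nmi, its binding partner, gave 7.38, 6.77 and 5.87 at day 10, 6.12, 5.75 and 6.16 at day 20, and 7.20, 6.89 and 6.72 at day 30, a dip at day 20 that did not pass the test (-0.66, adjusted p = 0.24).

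Parp9 and Dtx3l form a complex that modifies histones and STAT signalling, and both genes are read from a shared promoter region. Parp9 gave 6.60, 6.75 and 6.37 at day 10, 7.26, 7.07 and 7.30 at day 20, and 7.62, 7.43 and 7.35 at day 30, with no overlap between neighbouring days. It rose by 0.64 ± 0.13 by day 20 (adjusted p = 0.016) and by 0.89 ± 0.13 by day 30 (adjusted p = 0.0025). The day 20 call ended without day 20 replicate 1 (0.61) or replicate 3 (0.59). Dtx3l ran from 5.58 to 6.45 at day 10 and from 6.54 to 6.76 at day 30, a difference of 0.59 that did not pass (adjusted p = 0.097). Parp14, a related ADP-ribosyl transferase, gave 4.84, 4.73 and 4.71, then 5.26, 4.84 and 5.01, then 5.69, 5.74 and 5.33. Its day 30 arrays were above the rest, and it rose by 0.82 ± 0.14 by day 30 (adjusted p = 0.0058). The second probe set of Parp14 differed by -0.07, so the rise rests on 1 probe set. Usp18, the protease that removes ISG15 and dampens receptor signalling, was higher by 0.66 at day 30 with no overlap with day 10, but did not pass (adjusted p = 0.084).

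The IFIT proteins bind viral RNA and block its translation, and their genes lie side by side on chromosome 19. Ifit3 gave 5.02, 5.18 and 4.91 at day 10, 5.51, 5.52 and 5.53 at day 20, and 6.20, 6.17 and 6.77 at day 30. Each day lay above the one before with no overlap, and Ifit3 rose by 1.34 ± 0.16 from day 10 to day 30, or 2.54-fold (adjusted p = 0.0013). Ifit1 gave 4.0, 4.0 and 3.86, then 3.99, 4.19 and 3.99, then 4.62, 4.34 and 5.44. Its rise of 0.85 ± 0.25 by day 30 (adjusted p = 0.042) was led by day 30 replicate 3, without which the difference was 0.54. Leaving out any single day 10 or day 20 array, or day 30 replicate 1, ended the Ifit1 call, with differences from 0.81 to 0.94.

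Ifit2 showed another order of days. It gave 6.41, 7.06 and 5.57 at day 10, 7.72, 7.64 and 7.93 at day 20, and 6.86, 8.03 and 8.11 at day 30. The day 20 arrays were all above day 10, while day 30 replicate 1 fell within the day 10 range. The differences from day 10 were 1.42 at day 20 (adjusted p = 0.061) and 1.32 at day 30 (adjusted p = 0.060), and neither passed. Both passed without day 10 replicate 2 (1.77 and 1.68), without day 30 replicate 1 (1.42 and 1.72), and with genes of low signal left out (1.42 and 1.32). The IFIT genes have close copies on the same chromosome, and the array may not separate all of them.

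**Figure D1:**
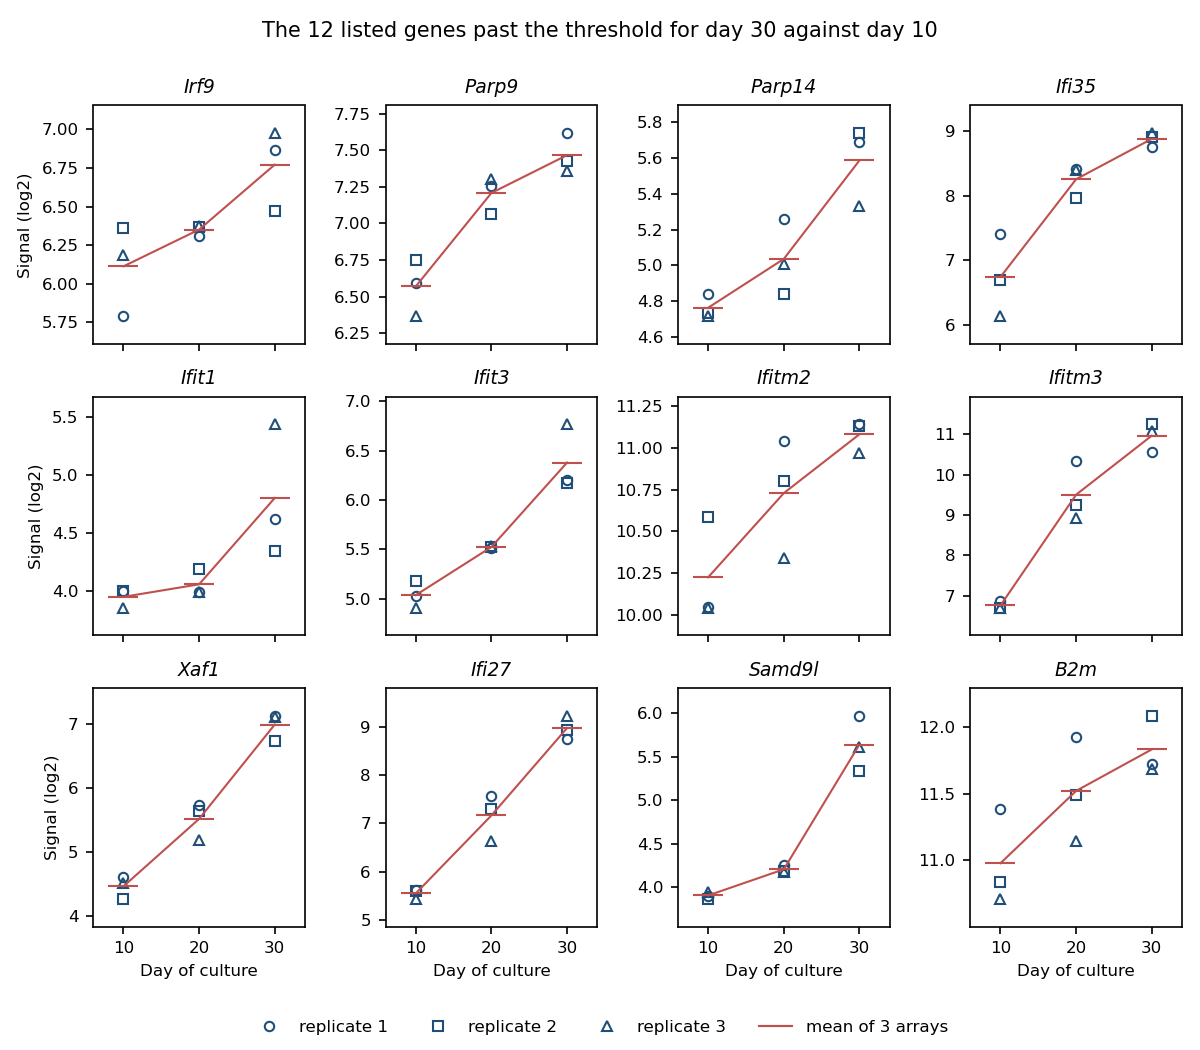
Log2 signal (y axis, its own range in each panel) against day of culture (x axis) for the 12 listed genes that rose from day 10 to day 30. Each marker is 1 array, by replicate number, and the red bars and line are the means of 3 arrays. For Ifitm3, Ifi27, Xaf1, Ifi35, Samd9l, Ifit3, Parp9 and Parp14 the arrays of each day lie above those of the day before, in Parp14 only just at day 20, while Irf9, Ifit1, Ifitm2 and B2m overlap between day 10 and day 20.

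The IFITM proteins sit in membranes and hinder the fusion of enveloped viruses, and the 3 listed genes went different ways. Ifitm3 gave 6.87, 6.70 and 6.70 at day 10, 10.34, 9.25 and 8.91 at day 20, and 10.55, 11.24 and 11.09 at day 30. The days did not overlap, and the gap between day 10 and day 20 was wider than the spread within either. Ifitm3 rose by 2.75 ± 0.34 by day 20 (6.71-fold, adjusted p = 0.003) and by 4.21 ± 0.34 by day 30 (18.5-fold, adjusted p = 0.00026). The later step of 1.46 did not pass (adjusted p = 0.16), though it did without day 20 replicate 1 (1.88). Ifitm2 gave 10.05, 10.59 and 10.04, then 11.04, 10.80 and 10.34, then 11.14, 11.13 and 10.97, and rose by 0.85 ± 0.21 by day 30 (adjusted p = 0.022). The Ifitm2 call was lost without day 10 replicate 1 or any 1 of the day 30 arrays, with differences of 0.76 to 0.91.

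Ifitm1, which in the embryo marks early mesoderm and germ cell precursors, had its higher values at day 10. It gave 7.87, 6.32 and 7.24 at day 10, 6.04, 5.73 and 5.56 at day 20, and 5.75, 6.64 and 5.67 at day 30. All 3 day 20 arrays were below day 10, and day 30 replicate 2 was above the lowest day 10 array. The differences of -1.37 at day 20 (adjusted p = 0.058) and -1.12 at day 30 (adjusted p = 0.085) did not pass. Both passed as lower without day 10 replicate 2 (-1.78 and -1.54). Without day 10 replicates 2 and 3, which leaves 1 array at day 10, the differences were -2.10 and -1.85. Bst2 (tetherin), which holds budding virus at the cell surface, lay between 5.62 and 6.57 on all arrays and differed by 0.09 between day 10 and day 30.

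None of the 4 listed GTPases passed the threshold. Gbp2, a guanylate-binding protein that attacks the vacuoles of intracellular microbes, gave 5.82, 5.0 and 4.65 at day 10, 5.33, 5.27 and 4.96 at day 20, and 6.27, 6.60 and 5.68 at day 30. Day 30 stood above day 20 but overlapped day 10 through its replicate 1, and the difference from day 10 was 1.03 (adjusted p = 0.058). It passed without day 10 replicate 1 (1.36) or day 30 replicate 3 (1.28), with array weights (0.99) and with the mean of probe sets (1.04). Gbp3 was higher by 0.46 (adjusted p = 0.090) and passed without day 10 replicate 1 (0.63) and with array weights (0.56). Mx1, which traps viral nucleocapsids, lay between 3.75 and 4.14 on the 9 arrays, at percentile 10.8 of all genes. Mx2 lay between 5.22 and 5.63, and the differences from day 10 to day 30 were 0.15 for Mx1 and 0.06 for Mx2.

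The remaining effectors held the strongest rises after Ifitm3. Ifi27, a small mitochondrial and nuclear envelope protein, gave 5.61, 5.61 and 5.43 at day 10, 7.57, 7.31 and 6.63 at day 20, and 8.76, 8.94 and 9.23 at day 30. No array overlapped between days. It rose at both steps, by 1.62 ± 0.23 (adjusted p = 0.005) and by 1.81 ± 0.23 (adjusted p = 0.034), for a total of 3.43 ± 0.23, or 10.8-fold (adjusted p = 0.00013). A second Ifi27 probe set differed by 4.34 between day 10 and day 30. Xaf1, a proapoptotic antagonist of the inhibitor of apoptosis XIAP, gave 4.60, 4.26 and 4.51, then 5.73, 5.63 and 5.18, then 7.12, 6.73 and 7.10. Its days were likewise apart, with steps of 1.05 ± 0.18 (adjusted p = 0.0088) and 1.47 ± 0.18 (adjusted p = 0.032) and a total of 2.53 ± 0.18, or 5.76-fold (adjusted p = 0.00014). The second Xaf1 probe set differed by 0.65 over the same span.

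Samd9l is a brake on translation and growth of haematopoietic cells. It gave 3.90, 3.86 and 3.95 at day 10, 4.25, 4.18 and 4.17 at day 20, and 5.97, 5.34 and 5.61 at day 30. The small first step of 0.30 did not pass (adjusted p = 0.22), and the second of 1.44 ± 0.15 did (adjusted p = 0.018), for a total of 1.74 ± 0.15 (3.33-fold, adjusted p = 3e-04). Every day 10 and day 20 array of Samd9l lay below 4.66, in the range where arrays compress differences. The sizes of its steps are therefore uncertain. Rsad2 (viperin), which makes a chain-terminating nucleotide, lay between 5.05 and 5.55, and Oasl2, an oligoadenylate synthetase-like protein, between 3.56 and 3.96 near the bottom of all signals. Their differences were -0.24 and 0.20, and neither passed.

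Antigen processing genes of the list were led by B2m, the light chain of every MHC class I molecule. It gave 11.38, 10.84 and 10.71 at day 10, 11.93, 11.49 and 11.14 at day 20, and 11.72, 12.09 and 11.69 at day 30. Day 30 was above day 10 on every array and overlapped day 20, and B2m rose by 0.86 ± 0.24 by day 30 (adjusted p = 0.039). Leaving out day 10 replicate 2 or 3, day 20 replicate 2 or any 1 of the day 30 arrays ended the B2m call, with differences of 0.72 to 0.93. Without both of the former day 10 arrays the B2m difference was 0.45.

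Psmb8 and Psmb9, the subunits that replace their constitutive counterparts in the immunoproteasome, were each above day 10 on all 3 day 30 arrays without passing. Psmb8 ran from 4.60 to 4.95 at day 10 and from 4.99 to 5.34 at day 30 (0.38, adjusted p = 0.084), and Psmb9 from 5.10 to 5.51 and from 5.52 to 5.89 (0.44, adjusted p = 0.051). Psmb9 passed without day 10 replicate 1 (0.56) or day 30 replicate 2 (0.54), and both passed with array weights (0.38 and 0.51). Psmb9 has 1 probe set, so the mean of probe sets left its difference at 0.44. It passed in that setting only through the changed values of other genes in the fit. Their constitutive counterparts Psmb5 and Psmb6, with Psmb7, differed by -0.32, -0.38 and -0.38, and their arrays overlapped. Without day 10 replicate 3 all of them passed as lower, at -0.51, -0.55 and -0.67. Without day 10 replicates 2 and 3, which leaves 1 array at day 10, Psmb6 and Psmb7 differed by -0.71 and -0.78. That array, replicate 1, held the highest value of all 9 for each of these subunits. With array weights Psmb7 passed at -0.49. Tap1, a subunit of the peptide transporter of the endoplasmic reticulum, gave 7.09, 5.82 and 5.57 at day 10 and 6.93, 6.56 and 6.80 at day 30. The first day 10 array was the highest of all 9 for Tap1, and the difference of 0.60 did not pass (adjusted p = 0.27). Without that array Tap1 passed at 1.07, and with array weights at 0.83, while without day 10 replicates 2 and 3 its difference was -0.33. The other probe sets of Tap1, all of lower signal, differed by -0.04, -0.19 and -0.09 between day 10 and day 30.

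**Figure D2:**
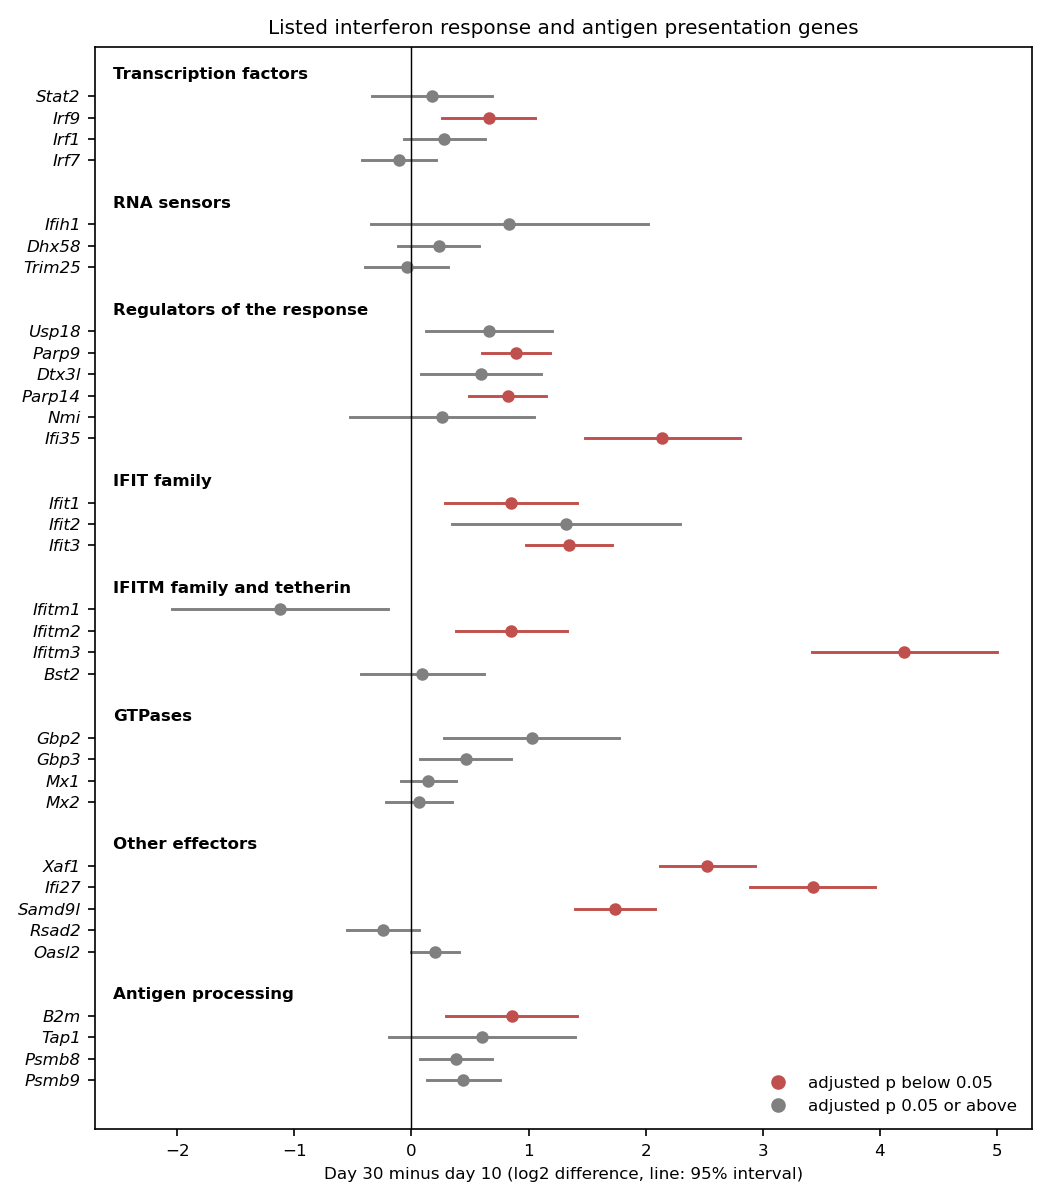
Day 30 minus day 10 in log2 signal (x axis) for the 33 measured genes, by role, with 95% intervals of the fit as lines. Red points passed adjusted p 0.05 and grey points did not. Ifitm3 and Ifi27 lie farthest to the right at 4.21 and 3.43, and Ifitm1 farthest to the left at -1.12.

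Set by interval, 5 of the 33 rose from day 10 to day 20 (15.2%, beside 7.3% of all genes called higher and 6.69% called lower) and 0 fell. These were Ifitm3, Ifi27, Ifi35, Xaf1 and Parp9. From day 20 to day 30 the 3 genes Ifi27, Xaf1 and Samd9l rose (9.09%, beside 0.291% of all genes called higher and 0.044% called lower) and 0 fell. These later calls were sensitive to single arrays. All 3 were lost without replicate 2 of day 10, and without replicate 2 or 3 of day 20. The Xaf1 and Ifi27 calls also ended without day 30 replicate 1 or 3, and that of Ifi27 without day 10 replicate 1 or day 30 replicate 2. Over those refits the later step was 1.31 to 1.53 for Xaf1, 1.54 to 1.92 for Ifi27 and 1.42 to 1.44 for Samd9l.

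Most of the list was slightly higher at day 30 than at day 20. The day 30 mean was above the day 20 mean for 31 of the 33, the exceptions being Ifit2 and Trim25, and the median step was 0.35 against 0.00 over all genes. From day 10 to day 20 the median was 0.11 against -0.03. The 3 later arrays were all above the 3 earlier ones for 19 genes from day 20 to day 30 (57.6%, beside 11.7% of all genes), for 9 from day 10 to day 20 (27.3%, beside 14.5%) and for 17 from day 10 to day 30 (51.5%, beside 17.4%). At both steps this held for 8 genes, Ifitm3, Ifi27, Xaf1, Ifi35, Samd9l, Ifit3, Parp9 and Parp14 (24.2%, beside 2.47%). All comparisons draw on the same 9 arrays, so these counts are not independent of each other.

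A direct test of the later step against the earlier one called 0 of the 33, with limma, beside 0.478% of all genes in either direction, and 3 passed at an unadjusted p below 0.05. Which step held more of a gene's change was therefore not resolved for any of them. The test over all 3 days at once called 8 of the 33 (24.2%, beside 17.5% of all genes). Genes called and at least 2-fold higher at day 30 than at day 10 were 6 of the 33, beside 6.02% of all genes, namely Ifitm3, Ifi27, Xaf1, Ifi35, Samd9l and Ifit3.

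**Figure D3:**
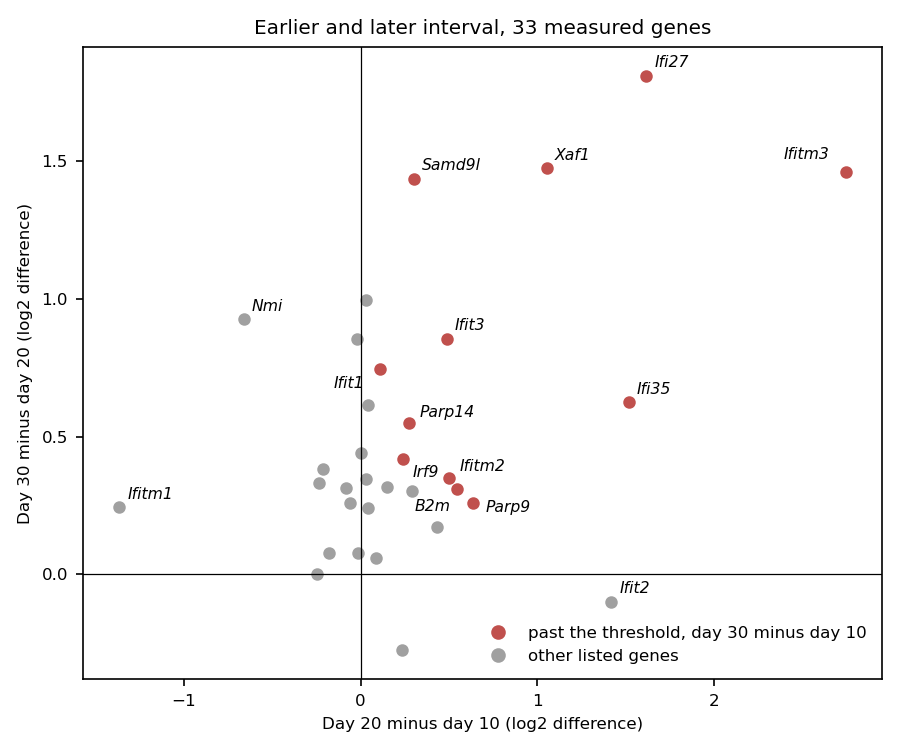
Day 30 minus day 20 (y axis) against day 20 minus day 10 (x axis), both in log2 signal, for the 33 measured genes. Each point is 1 gene, red where day 30 against day 10 passed adjusted p 0.05, and both axes use the same day 20 arrays. Samd9l lies high and near the left at 0.30 and 1.44, Ifi35 at 1.52 and 0.63, and Ifit2 lies just below the horizontal line.

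The pathway around the list was read from further sets of genes. The count of each set from day 10 to day 30 stands beside 11.2% of all genes called higher and 9.92% called lower. Of the ligands, receptors and signalling genes, 6 of 15 measured rose from day 10 to day 30 and 0 fell (median 0.15). Transcripts of the ligands Ifnb1, Ifna4 and Ifng had mean signals at percentiles 18.5, 14.6 and 5.97 of all genes and differed by -0.10, -0.17 and 0.00, none passing. The receptor chain Ifnar2 gave 8.45, 8.22 and 8.53 at day 10, 9.12, 8.89 and 8.86 at day 20, and 9.10, 9.26 and 9.14 at day 30, and it rose by 0.77 (adjusted p = 0.0032), or by 0.40 in its second probe set. Ifnar1, the other chain of that receptor, differed by 0.25 and did not pass (adjusted p = 0.38). Ifngr1, the ligand-binding chain for interferon gamma, rose by 1.76, and Ifngr2, its signalling partner, by 1.17 (adjusted p = 0.0043 each). The day 20 mean of Ifngr2 was above its day 30 mean by 0.15 on the log2 scale, and its second probe set differed by 0.28, which did not pass. Irf3, which switches on interferon genes after sensing, rose by 0.55 (adjusted p = 0.0065).

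Of 14 further genes of nucleic acid sensing, which take in sensors, adaptors, kinases and Tlr4, 7 rose and 0 fell by day 30 (median 0.39). They were Tlr3, Tlr4, Ddx58, Myd88, Mavs, Sting1 and Ikbke, while the sensors Tlr7, Tlr9, Cgas, Zbp1 and Aim2 did not pass by day 30. Tlr7 fell by 0.34 by day 20 (adjusted p = 0.047). Ddx58, which encodes the RNA sensor RIG-I, rose by 0.58 by day 20 (adjusted p = 0.031) and by 0.59 by day 30 (adjusted p = 0.02). Tlr7 and Ddx58 are given here outside the naming rule, chosen after their values were seen. Tlr4, which is best known as the receptor for bacterial lipopolysaccharide, gave 4.28, 4.21 and 4.18, then 5.09, 4.87 and 5.07, then 5.82, 6.15 and 5.81, with no overlap between days, and rose by 1.70 (adjusted p = 0.00013). The Tlr4 adaptor Myd88 rose by 1.52 (adjusted p = 0.00034) and the kinase Ikbke by 1.34 (adjusted p = 0.0025). Tlr3, a receptor for double-stranded RNA, rose by 0.96 (adjusted p = 0.0026), or by 0.53 in its second probe set, and its day 10 and day 20 arrays overlapped between 4.06 and 4.49.

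Of other interferon-stimulated effectors, 9 of 27 measured rose and 2 fell, Adar by 0.39 and Pml by 0.45 (median of the 27, 0.34). Lgals3bp, a secreted galectin-binding protein, rose by 2.10 (adjusted p = 0.001), and the exonuclease Isg20 by 1.90 (adjusted p = 0.0031). Tor3a, a torsin ATPase, rose by 1.55 (adjusted p = 0.0033) and the GTPase Igtp by 1.25 (adjusted p = 0.0029). Without day 10 replicates 2 and 3 the Tor3a difference was 0.98.

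**Figure D4:**
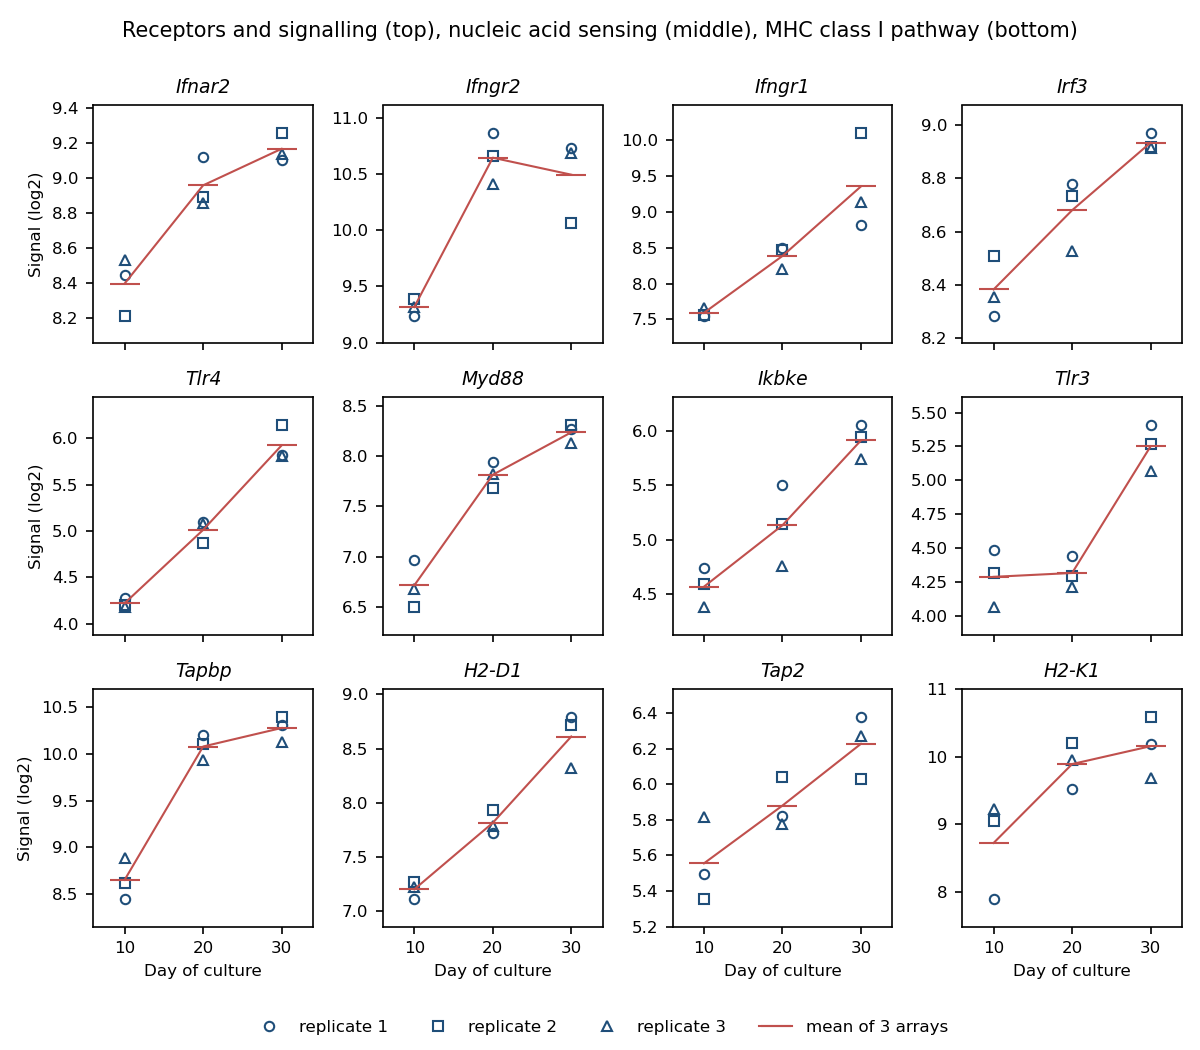
Log2 signal (y axis, its own range in each panel) against day of culture (x axis) for 12 genes around the list, with 1 marker an array by replicate number and red bars and lines for the means of 3 arrays. The top row holds receptors and signalling, the middle row sensors and their adaptors, and the bottom row the MHC class I pathway. The 12 were chosen as the genes of their lists lowest in adjusted p. That all are higher at day 30 than at day 10 follows in part from this choice and does not describe the lists. The day 20 mean lies nearer the day 30 mean than the day 10 mean for Ifngr2, Tapbp, H2-K1, Ifnar2, Myd88 and Irf3. For the others it lies nearer the day 10 mean. No gene of these lists passed the direct test of the later step against the earlier one.

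In the MHC class I pathway, 4 of 14 further genes rose and 0 fell (median 0.10). Tapbp (tapasin), which bridges the transporter and the class I molecule, gave 8.45, 8.62 and 8.89 at day 10, 10.21, 10.10 and 9.93 at day 20, and 10.31, 10.40 and 10.12 at day 30, a rise of 1.62 (adjusted p = 0.00029). The class I heavy chains H2-D1 and H2-K1 rose by 1.41 (adjusted p = 0.00048) and 1.43 (adjusted p = 0.031), and Tap2, the partner of Tap1, by 0.67 (adjusted p = 0.015). The H2-K1 call ended without replicate 1 of day 10, replicate 3 of day 20, or replicate 1 or 2 of day 30 (1.01 to 1.43), and the Tap2 call without day 10 replicate 2 or day 30 replicate 1 or 3 (0.57 to 0.65). Without day 10 replicates 2 and 3 the H2-K1 difference was 2.26. Class I heavy chains are near-identical in sequence, and the mean over the probe sets of H2-D1 differed by 0.48, so which of them each probe set reads is uncertain. Of 7 MHC class II genes, Cd74, the invariant chain, rose by 0.88 (adjusted p = 0.0099) and the rest did not pass. H2-Ab1 gave 5.43, 6.67 and 7.47 at day 10, 8.23, 8.81 and 8.79 at day 20, and 8.21, 7.69 and 7.60 at day 30. It rose by 2.09 by day 20 (adjusted p = 0.023), and its difference of 1.31 at day 30 did not pass (adjusted p = 0.081). That difference passed without day 10 replicate 3 (1.78) and with array weights (1.26). Without day 10 replicates 2 and 3, which leaves 1 array at day 10, it was 2.41.

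Markers of other cells moved over the same days, beside 11.2% of all genes called higher and 9.92% called lower from day 10 to day 30. In bulk RNA, fewer cells of a type and less RNA per cell cannot be told apart. Of 12 fibroblast and matrix markers, 10 rose and 0 fell from day 10 to day 30 (median 3.57), and their summed linear signal ran from 6215 to 11663 at day 10, from 34297 to 64590 at day 20 and from 74979 to 88495 at day 30. Of 10 markers of pluripotent cells, 8 fell (median -2.14), from sums of 920 to 1724 down to 221 to 254 at day 30. Each of the 12 cardiomyocyte markers had a mean signal at percentile 76.6 of all genes or above, and 2 of them rose, Tnni3 and Pln, while 0 fell.

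Of 15 blood and immune markers, 1 rose and 1 fell (median 0.01), with sums of 487 to 540 at day 10 and 609 to 796 at day 30. The one that rose was Lyz2, a lysozyme of macrophages, by 2.46 (adjusted p = 0.00093), from 5.01 to 5.13 at day 10 up to 7.20 to 8.13 at day 30, and Tyrobp fell by 0.40. Lyz2 was the brightest of the 15 on every day 30 array, so it weighs most in those sums. The median over the 15 of signal minus the gene's mean showed little change. It ran from -0.05 to 0.05 at day 10 and from -0.02 to 0.11 at day 30. Ptprc (CD45), which defines blood cells, had a mean signal at percentile 5.0 of all genes and differed by -0.17. Of 10 endothelial markers, Eng rose, Kdr fell and the rest did not pass (median -0.62). No marker could be called absent, since the deposited values carry no detection calls. The part of these cells in the rise of the listed genes was not tested.

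**Figure D5:**
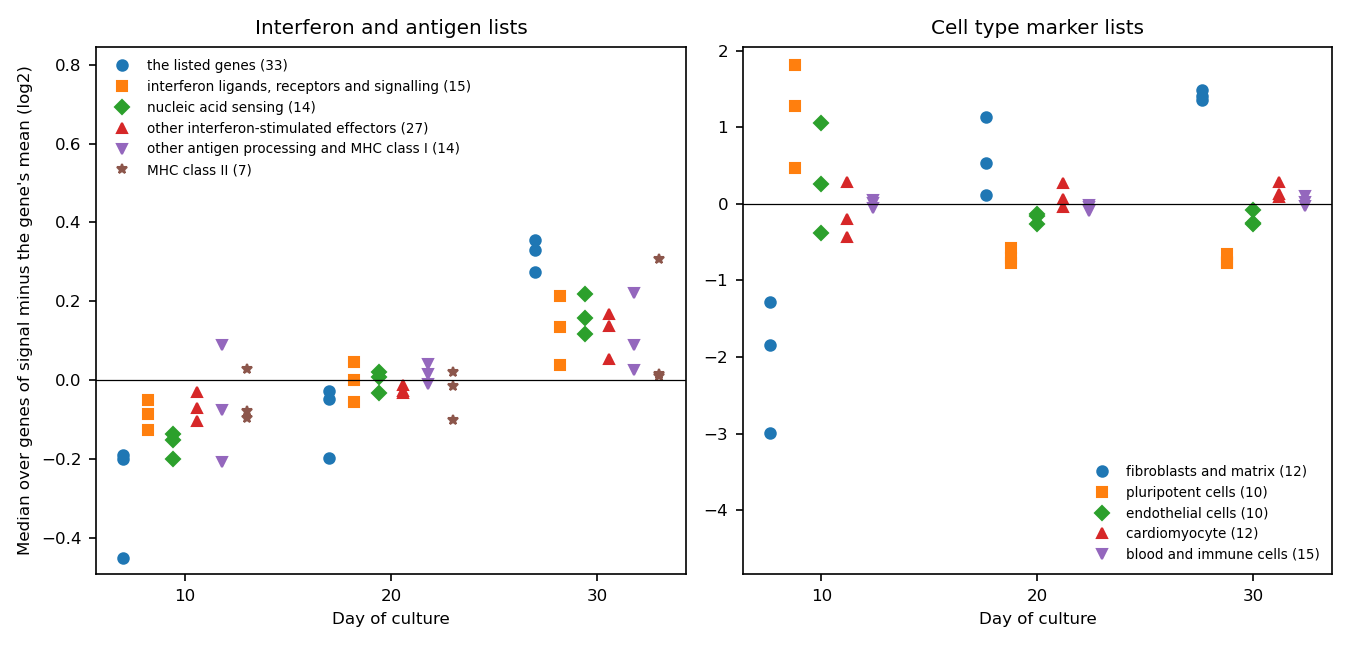
Median over the genes of a list of each array's log2 signal minus the gene's mean over the 9 arrays (y axis), against day of culture (x axis, lists set side by side within a day), 1 marker for each array. The number of genes is in brackets. The listed genes lie between -0.45 and -0.19 at day 10 and between 0.27 and 0.35 at day 30, and fibroblast and matrix markers, on a wider axis, between -2.99 and -1.28 and between 1.36 and 1.49.

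Across the whole series, arrays of a day correlated at 0.965 or more over all genes. Medians of the arrays differed by 0.07 at most. The day 10 arrays spread the most, with a median SD of 0.19 over all genes and 0.28 over the listed ones, beside 0.14 and 0.22 at day 30. Day 10 replicates 2 and 3 had the lowest mean signal of the added poly-A spike controls, 5.24 and 5.09, against 5.91 to 6.69 on the other arrays. With both left out, day 10 rests on replicate 1 alone. Without these arrays (an alternative chosen after seeing the data), the Parp14, Ifit1, B2m and Cd74 calls from day 10 to day 30 were lost, at 0.74, 0.81, 0.45 and 0.90. With only the days compared in the fit, the calls of Irf9, Ifit1 and H2-K1 from day 10 to day 30, of Ifi35 from day 10 to day 20 and of Ifi27 from day 20 to day 30 ended at the differences given above. Second brightest probe sets ended the calls of Xaf1 at either step (0.22 and 0.43), of the later step of Ifi27 (1.71), and of Tapbp (1.07) by day 30, and the mean of probe sets that of Irf3 (0.37).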

How the data were processed

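RNA of 9 cultures was labelled with biotin by a 3′ primed Affymetrix kit, per the labels' protocols. The authors deposited 1 log2 signal for each probe set on each array. Their normalization is not given in the sources used here, and the log base was inferred from the range of 2.77 to 14.5. They were used as deposited. The limited number of arrays sets the precision, and the files hold no detection calls.

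Of 45101 probe sets, 34958 had 1 gene symbol, 932 several and 9211 none, and the brightest probe set stood for each of 18194 genes. All 9 arrays entered the fit, with 1 mean a day (lmFit and eBayes of limma 3.58.1, R 4.3.3, two-sided), with Benjamini-Hochberg adjustment over all genes and a threshold of 0.05. The script was tested on simulated data. Intervals are at 95%. The genes and lists were chosen with earlier results of these data known. Genes past the threshold in any comparison of days are given array by array, the others by range, and of each further list the up to 4 genes lowest in adjusted p are named. Uncalled genes given array by array, and those added from the further lists, were chosen after their values were seen. Promoter windows came from RefSeq (GRCm38.p6).

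Alternatives were other probe sets per gene, quantile normalization, a filter on low signal, only the days compared, array weights, another variance prior, the replicate number as a block, and each array left out.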

Additional observations from a re-analysis of the deposited data

How the results depend on the processing

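The count of listed genes that rose from day 10 to day 30 was 12 and ranged from 9 to 13 when single arrays were left out. It was 17 with array weights and 7 with a filter on the median signal. That filter left out 24 of the 33. Of all genes, 2036 were called higher from day 10 to day 30, 2943 with array weights, and 1471 of the 9097 that the filter kept. From day 10 to day 20 the count of listed genes ranged from 3 to 6 with single arrays left out, and from day 20 to day 30 from 0 to 4. The latter was 1 with the second brightest probe sets and 1 with the filter. The count that fell ranged from 0 to 1 from day 10 to day 20, from 0 to 0 from day 20 to day 30, and from 0 to 1 from day 10 to day 30. With array weights 1 fell by day 20. Without the 2 day 10 arrays of low spike signal, chosen after seeing the data, 2 fell by day 20 and 1 by day 30, and day 10 was 1 array assumed to vary like the others. The later step was called higher than the earlier one for 0 to 2 genes and lower for 0 to 1 with single arrays left out, and higher for 2 with array weights and for 2 without the low-spike arrays. With the replicate number as a block, 5, 2 and 12 genes rose from day 10 to day 20, day 20 to day 30 and day 10 to day 30, and the calls of Irf9 and Ifit1 by day 30 and of the later step of Ifi27 ended, while Gbp2 and Psmb8 passed by day 30. Whether same-numbered arrays belong together was not settled by the correlation of their deviations (-0.149 to 0.434, over 0.1 in 3 of 9 pairs). Of the 9 arrays, 7 correlated best with their own number at another day, so a shared structure is possible, and the main fit does not model it. Over all genes, 53 were called higher from day 20 to day 30, 231 with array weights, 14 with the filter, 21 with the second brightest probe sets, 32 with the block, and 5 to 113 with single arrays left out. From day 10 to day 20, 1328 were called higher, 2662 with array weights and 848 with only the days compared.

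Of the called genes, Parp14 turned with its second brightest probe set, to -0.074 from day 20 to day 30 and -0.066 from day 10 to day 30. Uncalled differences from day 10 to day 30 also turned. With second brightest probe sets they were Stat2 at -0.17, Rsad2 at 0.24, Psmb8 at -0.10 and Tap1 at -0.037, and with the mean of probe sets Rsad2 at 0.015. With array weights they were Stat2 at -0.13, Dhx58 at -0.016 and Trim25 at 0.085. With single arrays left out, Stat2 ranged from -0.043 to 0.42, Mx2 from -0.026 to 0.15, Bst2 from -0.10 to 0.26, Trim25 from -0.15 to 0.14 and Nmi from -0.14 to 0.62. Leaving out the low-spike arrays turned Irf7 (0.19), Bst2 (-0.13), Trim25 (0.18), Tap1 (-0.33) and Nmi (-0.45). The cause was not tested.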

Other observations

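Several listed genes differed more among the 3 day 10 arrays than between ages. Nmi ran from 7.38 in replicate 1 to 5.87 in replicate 3, Tap1 from 7.09 to 5.57 and Ifih1 from 6.60 to 4.91, while Stat2 was highest in replicate 2 (6.81) and lowest in replicate 1 (5.87). The constitutive proteasome subunits Psmb5, Psmb6 and Psmb7 were also highest in day 10 replicate 1, at 11.46, 11.88 and 11.64, and lowest of that day in replicate 3, at 10.85, 11.22 and 10.66. Endothelial markers had their highest median at day 10 replicate 3, 1.06 above the gene means, against -0.38 in replicate 1. H2-K1 was lowest in replicate 1 of that day, at 7.89 against 9.05 and 9.23, and H2-Ab1 likewise, at 5.43 against 6.67 and 7.47.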
